A study of Mus musculus with 12 samples.

Results

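The chitinases and chitinase-like proteins of mouse tongue were followed through 4 treatment groups. The set holds 5 genes, Chia, Chit1, Chi3l1, Chi3l3 and Chi3l4, found by symbol among 23235 gene rows. Tongue came from C57BL/6 mice at 31 weeks of age, with 3 samples in each group. The labels name the treatments V.C./Untr., V.C./EtOH, 4-NQO/Untr. and 4-NQO/EtOH, where EtOH is ethanol and 4-NQO is 4-nitroquinoline oxide, a carcinogen that forms DNA adducts and gives rise to tumours of the mouse mouth. In the tables the groups carry only the numbers 1 to 4. Neither tables nor labels tie a number to a treatment, so each comparison below is between numbered groups. Doses were not used here. The 5 genes were chosen by their deposited FPKM levels and calls, which differ between the groups, so their levels, differences and calls are descriptions and nothing is concluded from their q-values.

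Family members share the fold of the chitin-cleaving glycosyl hydrolases. Chia and Chit1 are active enzymes that cut chitin, the polymer of fungal walls, insect cuticle and worm sheaths. The Chi3l proteins bind chitin-like sugars but have lost the cleaving residue, and act as lectins. Chia, acidic mammalian chitinase, is a secreted product of salivary and gastric glands and of airway epithelium. Chit1, chitotriosidase, is best known from activated human macrophages. Chi3l1 is the mouse relative of human YKL-40, a lectin released by inflamed epithelium, macrophages and neutrophils. Chi3l3, also called Ym1, is made by macrophages exposed to interleukins of the allergic type and by bone marrow granulocyte precursors, and Chi3l4, or Ym2, is a close copy known from allergic airways.

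The difference between enzyme and lectin can be read in the coding sequence. The lines below give the coding stretch around the catalytic centre, 60 bases per gene, from the GENCODE transcripts of the NCBIM37 (mm9) genome, with capitals on the codon that aligns with the catalytic glutamate codon of Chia.
Chia: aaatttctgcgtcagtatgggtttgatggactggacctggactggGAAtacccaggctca
Chit1: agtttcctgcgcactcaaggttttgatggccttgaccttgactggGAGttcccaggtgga
Chi3l1: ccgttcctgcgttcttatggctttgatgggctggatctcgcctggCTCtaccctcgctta
Chi3l3: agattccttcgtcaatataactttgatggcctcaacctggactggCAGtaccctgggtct
Chi3l4: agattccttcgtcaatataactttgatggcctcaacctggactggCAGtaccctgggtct
Chia and Chit1 have glutamate codons at that place and hold the full catalytic motif of the family in frame. Chi3l1 has a leucine codon and the pair Chi3l3 and Chi3l4 a glutamine codon, and the motif is not found in any of these 3 coding sequences. The stretch lies in exon 5 of 11 of Chia (chr3:105925342-105925401, plus strand), exon 6 of 12 of Chit1 (chr1:136041887-136041946, plus strand), exon 5 of 10 of Chi3l1 (chr1:136081784-136081843, plus strand), exon 5 of 11 of Chi3l3 (chr3:105963334-105963393, minus strand) and exon 5 of 11 of Chi3l4 (chr3:106013439-106013498, minus strand).

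Levels are FPKM, fragments scaled by transcript length and by the size of the library, given as 1 value per gene and group. The error beside each is a standard error (SE) implied by the authors' own test statistics, n = 3 samples per group. It is not a spread measured here between samples. The depth behind the values is unknown, and with no values of single samples in use, overlap between samples of different groups cannot be given. The implied error of a typical gene was larger in group 3 (median SE of the log2 level 0.509) and group 4 (0.345) than in group 1 (0.146) and group 2 (0.213). Markers of tongue muscle (Acta1, Ckm, Myh4) and of tongue epithelium and papillae (Krt76, Krt36, Krt84) stood between 66.7 and 5901 FPKM wherever the authors gave a value, which they did not for Acta1 in groups 1 and 2 or for Krt84 in groups 3 and 4. The levels of muscle markers and of Krt76 were lower in groups 3 and 4, with no test read: Ckm stood at 5901, 5514, 2313 and 2856 FPKM in groups 1 to 4, Myh4 at 1028, 1042, 512 and 678, and Krt76 at 493, 466, 247 and 242. The filiform keratin Krt36 was higher there, at 81.7, 121, 188 and 167 FPKM. The part of such shifts in tissue make-up in the family's levels was not tested. In these whole-tissue samples, fewer cells of a type and less RNA per cell cannot be told apart.

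Chia (mm9 chromosome 3, 105916299 to 105935034) was the most abundant family transcript of groups 1 and 2 and the least abundant of group 4. In groups 1 to 4 it stood at 265 ± 27.0, 210.03 ± 33.1, 54.6 ± 28.7 and 1.20 ± 0.595 FPKM. The level in group 4 was 221 times below that of group 1 and 45.6 times below that of group 3. The difference between groups 1 and 2 missed the authors' threshold (q = 0.885 in the authors' deposited table), with a log2(FPKM + 1) difference of -0.33 ± 0.27 for group 2 minus group 1. Group 3 lay between them and group 4, at -2.26 ± 0.76 from group 1, which also missed the threshold (q = 0.0830 in the authors' deposited table). Among all genes with a value, 359 had a higher level than Chia in group 1 and 12309 in group 4.

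Chit1 (chromosome 1, 136007818 to 136048013) ran the other way. Its levels in groups 1 to 4 were 33.0 ± 2.49, 45.2 ± 5.41, 141 ± 50.4 and 135 ± 28.7 FPKM. The values fall into a low pair, groups 1 and 2 (q = 0.315 in the authors' deposited table), and a high pair, groups 3 and 4. Group 4 was 4.09 times group 1 (log2 difference 2.00 ± 0.32) and 2.99 times group 2 (1.56 ± 0.35). Group 3 against group 2 missed the threshold (1.62 ± 0.54, q = 0.0704 in the authors' deposited table). Within the high pair the difference, group 4 minus group 3, was -0.06 ± 0.60 with a 95% interval from -1.23 to 1.10.

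Chi3l1 (chromosome 1, 136078980 to 136086608) had the largest relative span among the lectins. Its levels were 0.937 ± 0.192 and 0.819 ± 0.192 FPKM in groups 1 and 2, against 44.6 ± 15.3 and 95.0 ± 20.9 in groups 3 and 4. Groups 3 and 4 were therefore 47.6 and 101 times above group 1. On the log2(FPKM + 1) scale the rises from group 1 were 4.56 ± 0.50 and 5.63 ± 0.35. The step from group 3 to group 4, 1.07 ± 0.58, did not pass the authors' test (q = 0.503 in the authors' deposited table).

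Chi3l3 (chromosome 3, 105950471 to 105970482) was the least abundant member in groups 1, 2 and 3. The 4 group levels were 0.182 ± 0.0618, 0.621 ± 0.162, 3.09 ± 1.40 and 16.4 ± 4.60 FPKM. The levels were ordered as the group numbers are, and group 4 stood 90.0 times above group 1. Part of the reads cannot be told from those of the near copy Chi3l4, as set out below, and their share in these levels was not tested. Neither the step from group 2 to group 3 (q = 0.0634) nor that from group 3 to group 4 (q = 0.0541) passed the threshold in the authors' deposited table. The differences on log2(FPKM + 1), which compress low levels, were 1.79 ± 0.50 for group 3 and 3.88 ± 0.39 for group 4 against group 1.

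Chi3l4 (chromosome 3, 106004408 to 106022397) peaked in group 3. Its levels in groups 1 to 4 were 8.21 ± 0.877, 32.3 ± 4.58, 104 ± 33.8 and 37.1 ± 7.68 FPKM. It was the 1 member with a called difference between groups 1 and 2, a log2 rise of 1.85 ± 0.24. Groups 2 and 4 differed by less than their error, 0.19 ± 0.35 for group 4 minus group 2, with a 95% interval from -0.50 to 0.88. Group 4 was 2.81 times below group 3 (-1.46 ± 0.55), which missed the authors' threshold (q = 0.143 in the authors' deposited table).

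**Figure D1:**
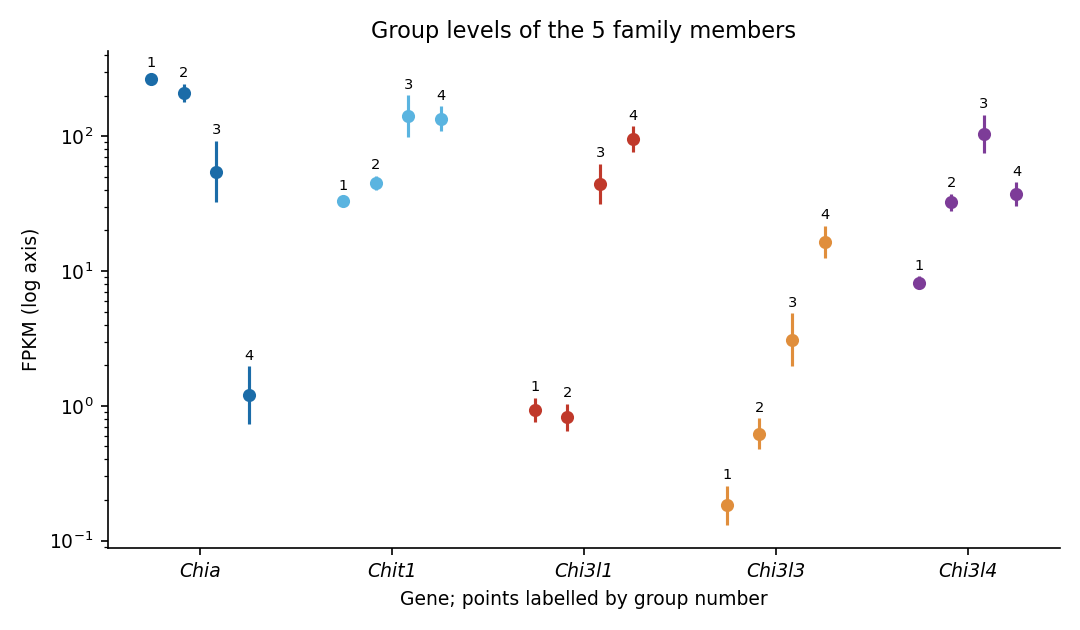
FPKM of each family member on a log axis, 1 point per numbered group with the group number above it; bars span 1 SE on the log2 scale either way, as implied by the authors' statistics (n = 3 per group). Chia drops from 265 to 1.20 FPKM between groups 1 and 4, Chit1 and Chi3l1 form a low pair and a high pair, Chi3l3 climbs with group number and Chi3l4 is highest in group 3.

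Added together, the 5 genes kept a similar total while their make-up differed. They summed to 307, 289, 348 and 285 FPKM in groups 1 to 4, sums that carry no error here. The enzymes Chia and Chit1 made up 97.0%, 88.3%, 56.3% and 47.8% of these sums. Chia alone was 86.2% of the sum in group 1 and 0.421% in group 4, so that nearly all enzyme transcript in group 4 was Chit1. The lectins summed to 9.33, 33.7, 152 and 148 FPKM in groups 1 to 4. Group 3 and group 4 had close lectin sums of different kinds, since Chi3l4 was the largest lectin in group 3 and Chi3l1 in group 4.

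**Figure D2:**
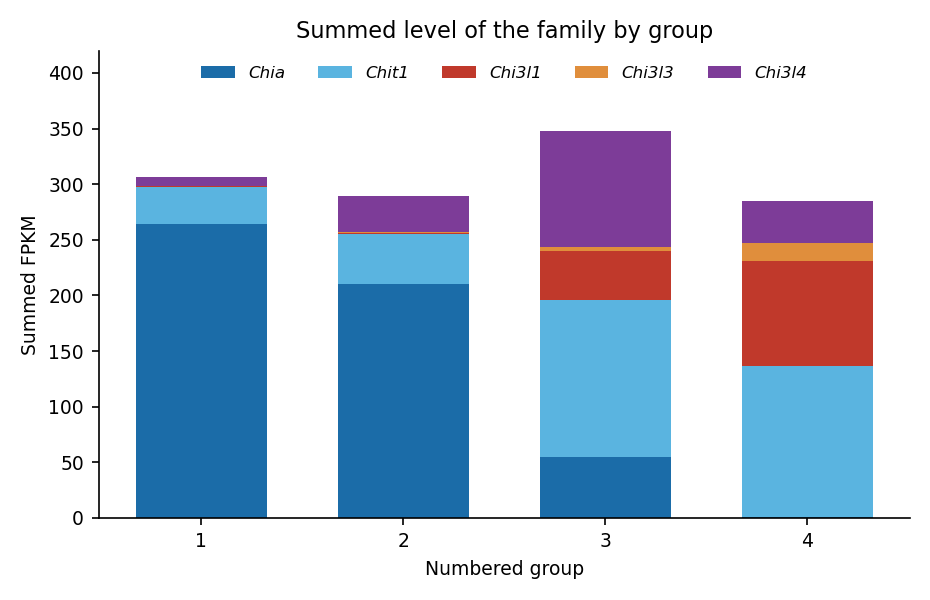
Stacked bars of the summed FPKM of the 5 genes in each numbered group, with no error shown. The total stays between 285 and 348 FPKM while the blue enzyme part shrinks from 298 to 136 FPKM and the lectin part grows from 9.33 to 148.

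A gene is called here when the authors tested it, their deposited q is under 0.05 and 1 or both groups reach 1 FPKM. In group 2 against group 1, 1 of 5 members was called higher (Chi3l4), where 0.594% of all tested genes were, and 0 were called lower, where 0.305% of all were. Chi3l1 and Chi3l3 were under 1 FPKM in both of those groups. At an unadjusted p under 0.05, 435 of all 12799 tested genes differed there. In group 3 against group 1, Chit1, Chi3l1, Chi3l3 and Chi3l4 were called higher (background 2.52%) and 0 members lower (0.282%). In group 4 against group 1 the same 4 were called higher (5.0%) and Chia lower (3.91%). Chi3l1 and Chi3l3 reach 1 FPKM only in groups 3 and 4, so against groups 1 and 2 they could enter these counts only as higher.

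Against group 2, group 3 had Chi3l1 and Chi3l4 called higher (background 1.61%) and 0 members lower (0.229%). The Chi3l4 call (q = 0.0353 in the authors' deposited table) was lost at a q threshold of 0.01 and when p-values were adjusted within the comparison, leaving 1 member. Group 4 had Chit1, Chi3l1 and Chi3l3 called higher than group 2 (3.31%) and Chia lower (2.25%). In group 4 against group 3 the only member called was Chia, lower (background 0.124%), and 0 were called higher (0.170%). The median log2 difference of the 5 members was 2.06 in group 3 against group 1 and 2.05 in group 4 against group 1, where the medians of all tested genes were -0.04 and -0.08. These comparisons share groups and are not independent of one another.

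**Figure D3:**
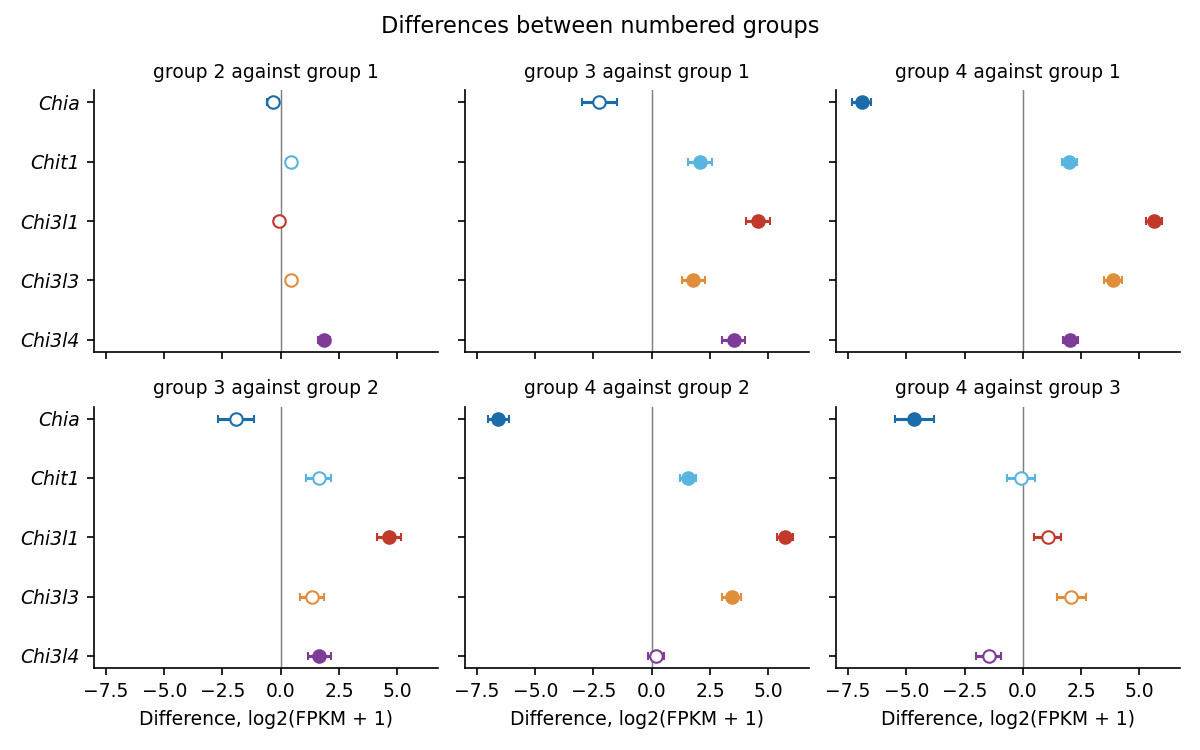
Log2(FPKM + 1) differences of the 5 genes in the 6 comparisons, the higher-numbered group minus the lower-numbered one, with 1 SE bars; filled points are called by the authors' test and open points are not. Chia lies left of 0 in every panel, and Chi3l4 changes side between group 3 against group 2 (1.66) and group 4 against group 3 (-1.46).

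Chi3l3 and Chi3l4 are near copies, so part of their reads cannot be assigned with certainty. Their coding sequences were 95.3% identical over 1197 aligned bases, while Chia was 76.0% identical to Chi3l3 and each other pair was at or below 75.8%. Of all windows of 36 bases in the Chi3l3 transcript, 26.8% occur unchanged in that of Chi3l4, and 18.5% of windows of 50 bases do. The read length, and how such reads were split between the genes, are not known here. The deposited level of Chi3l4 was 45.0, 52.0 and 33.7 times that of Chi3l3 in groups 1 to 3, and 2.26 times in group 4. These ratios carry no error here, and the part of shared reads in the levels of Chi3l3 was not tested.

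The sequence just before the start of these near copies is also alike. The lines below give the 250 bases upstream of each RefSeq start (GRCm38.p6, where the genes are listed as Chil3 and Chil4), with capitals on bases that differ between the genes or face a gap within the aligned part.
Chi3l3: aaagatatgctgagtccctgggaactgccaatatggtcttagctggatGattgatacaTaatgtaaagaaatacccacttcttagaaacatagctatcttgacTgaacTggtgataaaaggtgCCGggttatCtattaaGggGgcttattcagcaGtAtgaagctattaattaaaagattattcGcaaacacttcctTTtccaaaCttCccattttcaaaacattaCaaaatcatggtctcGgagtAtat
Chi3l4: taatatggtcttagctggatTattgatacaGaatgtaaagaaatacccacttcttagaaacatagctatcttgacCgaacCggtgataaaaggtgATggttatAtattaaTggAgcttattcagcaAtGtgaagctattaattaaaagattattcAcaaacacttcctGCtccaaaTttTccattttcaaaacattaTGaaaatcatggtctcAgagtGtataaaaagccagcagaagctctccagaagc
They lie on the minus strand at chr3:106167565-106167814 for Chi3l3 and chr3:106219480-106219729 for Chi3l4 in that build, and were 91.4% identical over 220 aligned bases.

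The 5 genes sit in 2 clusters. Chit1 and Chi3l1 are 31.0 kb apart on chromosome 1, and Chia, Chi3l3 and Chi3l4 follow each other on chromosome 3 with gaps of 15.4 and 33.9 kb. Within the chromosome 3 cluster, Chia and its direct neighbour Chi3l3 had opposite differences in group 4 against group 1, -6.92 ± 0.42 and 3.88 ± 0.39. The 7 other gene rows within 250 kb of that cluster had 0 calls in all 6 comparisons. That count says little, as 2 of them reached 1 FPKM and between 0.124% and 5.0% of all tested genes were called in a direction. Only Atp5f1, a subunit of mitochondrial ATP synthase, and Wdr77, a partner of an arginine methyltransferase, reached 1 FPKM among them, at 551 and 10.3 FPKM in group 1. Their differences in group 4 against group 1 were -0.89 and 0.17.

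Around Chit1 and Chi3l1, 12 other gene rows lie within 250 kb and 9 reached 1 FPKM in a group. None was called higher in any of the 6 comparisons, which says little where between 0.170% and 5.0% of all tested genes were. Fmod, which encodes the collagen-binding proteoglycan fibromodulin and lies 63.0 kb from Chit1, was called lower in groups 3 and 4 against group 1 and in group 4 against group 2, from 9.34 to 1.83 and 1.92 FPKM. Prelp, another matrix proteoglycan 189.8 kb away, was called lower in group 4 against groups 1 and 2 and lower in group 3 against group 2. Its levels were 15.4, 20.4, 6.78 and 7.22 FPKM in groups 1 to 4. Of the 9, 1 was thus called lower in group 3, and 2 in group 4, against group 1 and likewise against group 2. In these comparisons between 0.229% and 3.91% of all tested genes were called lower, and counts from 9 genes carry little weight. Mybph, a myosin-binding protein gene 3.42 kb from Chi3l1, went from 65.8 FPKM in group 1 to 29.2 in group 4 and was not called.

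**Figure D4:**
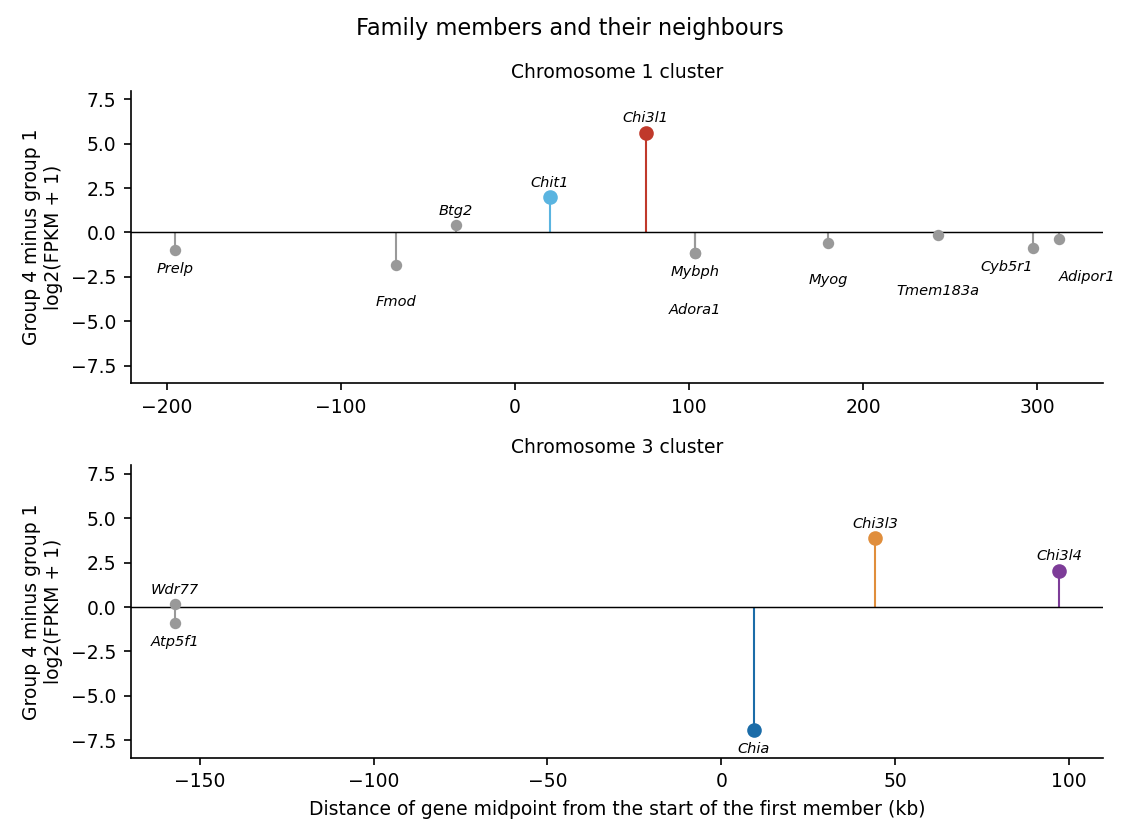
Difference of group 4 minus group 1 in log2(FPKM + 1) against distance in kb from the start of the first family member, for gene rows at 1 FPKM or more in a group; family members are coloured, neighbours grey. Chi3l1 (5.63), Chit1 (2.00), Chi3l3 (3.88), Chi3l4 (2.05) and Chia (-6.92) reach beyond all grey neighbours, which lie between -1.82 and 0.42.

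The genes whose 4 group levels ran most like each member differed from member to member. Likeness was the root mean square difference of log2(FPKM + 1) centred on the gene's own mean over the 4 groups, among 8997 other genes at 5 FPKM or more in a group, and with 4 points per gene it is a description only. The 5 nearest to Chia were Dcpp1 (0.692), the Mirlet7b row, Sbp (0.772), Dcpp3 (0.780) and the Snord38a row. Dcpp1 and Dcpp3 encode secreted proteins of salivary demilune cells and Sbp a spermine-binding secretory protein. No gene came within 0.5 of Chia. Nearest to Chit1 were the keratin Krt42 (0.0384) and the dividing-cell genes Cdca3, Mki67, Ccnb1 and Birc5, but 501 genes lay within 0.5 of Chit1.

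Chi3l1 ran closest to Sprr2j-ps, of the small proline-rich family of cornified epithelium (0.286), Gm5416, the Mir31 row, the epithelial beta-defensin Defb3 (0.366) and the Snord11 row. Retnlg, a resistin-like gene of neutrophils, was nearest to Chi3l3 (0.279), at 0.191, 0.639, 1.77 and 18.6 FPKM in groups 1 to 4. Idi2, Fmo9, 1100001G20Rik and Rps27 came next to Chi3l3. Chi3l4 was nearest to the interferon-induced chemokine gene Cxcl10 (0.267), at 0.380, 4.55, 14.4 and 2.89 FPKM, and Cxcl9 (0.513), with the rows Snord35a, Mir203 and Mir5133 also among its 5. Rows of such small RNAs are at the edge of what a poly-A library of sheared RNA can measure.

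Gene lists that bear on the family were then read through the same calls. The type 2 axis list holds interleukins, receptors and signal carriers of the pathway that is known to induce Chi3l3, Chi3l4 and Chia in other tissues. Not every gene of it is an inducer. Of its 13 genes, 6 reached 1 FPKM in a group. Il4ra, the shared receptor chain for interleukins 4 and 13, was called higher in groups 3 and 4 against group 1, from 1.96 to 8.22 and 6.98 FPKM (1.64 ± 0.43 and 1.43 ± 0.28), and against group 2 as well. It was the 1 called gene of the 5 or 6 tested in each of these 4 comparisons, where between 1.61% and 5.0% of all tested genes were called higher. The list's median in group 4 against group 1 was 0.55. Of the genes tested, 2 of 6 in group 3 and 1 of 5 in group 4 reached 1 FPKM there but not in group 1. These could only come out higher. Il4 and Il13 themselves were at or under 0.141 FPKM in every group, and Stat6 stood between 16.5 and 22.2 FPKM with no call.

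The alternative activation list holds genes that accompany Chi3l3 in macrophages, and also Spdef and Clca3, which belong to secretory epithelium. In group 4 against group 1, 2 of 10 tested were called higher (background 5.0%) and 2 lower (3.91%). The higher ones were the arginase Arg1 (42.7 to 104 FPKM, 1.27 ± 0.30) and the chemokine Ccl22 (0.308 to 2.44 FPKM). The lower ones were Retnla, a resistin-like gene of such macrophages (168 to 59.6 FPKM, -1.48 ± 0.32), and the secretory cell factor Spdef (62.6 to 21.3 FPKM). The median difference of the list was 0.13 there. In group 2 against group 1, 2 of 11 were higher (Ccl22, Alox15, background 0.594%) and Spdef lower (0.305%). Of these 11, 3 reached 1 FPKM in group 2 but not in group 1, Ccl22 and Alox15 among them, and could only come out higher. The same held for 2 of the 10 in group 4 against group 1, Ccl22 among them. General macrophage markers had 0 calls in each of the 6 comparisons, with 8 or 9 tested and medians between -0.18 and 0.28, a count that says little where between 0.124% and 5.0% of all genes were called in a direction. They summed to 205, 199, 134 and 170.3 FPKM in groups 1 to 4, most of it the lysozyme gene Lyz2, and without Lyz2 to 26.5, 34.3, 34.1 and 33.2 FPKM. Cd68 stood at 5.09, 7.05, 8.34 and 8.91 FPKM in groups 1 to 4 and Csf1r between 6.50 and 8.05.

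Granulocyte markers were read next, since Chi3l1 and Chi3l3 are known from these cells. Of 10 precursor markers tested in group 4 against group 3, 8 reached 1 FPKM only in group 4 and could therefore only come out higher. Of these 8, 6 were called, where 0.170% of all tested genes were called higher. Lcn2 and Ltf, the other tested genes, were not called. The precursor list summed to 77.0, 47.2, 69.8 and 178 FPKM in groups 1 to 4, and without Ltf, lactoferrin, which the list of salivary products below holds too, to 3.41, 2.68, 30.05 and 158 FPKM. Nearly all of the 30.05 FPKM in group 3 was Lcn2, at 2.97, 2.37, 29.5 and 51.2 FPKM in groups 1 to 4. Mpo, Elane and Prtn3 were at or under 0.0835 FPKM in group 3. Ngp, a granule protein of immature neutrophils, was at 0.0973 FPKM in group 3 and 37.2 in group 4, and at or under 0.139 in groups 1 and 2. Camp, the cathelicidin precursor, was listed at 0 in groups 1 and 2, at 0.266 in group 3 and at 47.6 in group 4. Mature neutrophil markers had 3 of 8 called higher in group 3 against group 1 (S100a8, S100a9, Mmp9, background 2.52%). In group 4 against group 1, 5 of 9 were called higher, with Mmp8 and Retnlg added (background 5.0%). Of those 8, 5 reached 1 FPKM in group 3 but not in group 1, Mmp9 among them, and could only come out higher. Of those 9, 6 reached 1 FPKM in group 4 but not in group 1, and could only come out higher. That list summed to 25.3, 34.0, 4774 and 6198 FPKM in groups 1 to 4, nearly all of it S100a8 and S100a9 in groups 3 and 4. S100a8 and S100a9 are also made by stressed keratinocytes. The part of these cells in the levels of Chi3l1 and Chi3l3 was not tested.

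Products of salivary and lingual glands, where Chia is known to be made, were the next list. It is called the serous gland list here, though it also holds the mucins Muc5b and Muc19. Its genes with a value in every group, which leaves out Amy1, Muc5b and Lipf, summed to 14023.5, 7848, 4162 and 576 FPKM in groups 1 to 4. Sbp made up much of that, and without Sbp the sums were 4348, 2531, 3520.5 and 471 FPKM. Amy1, with no value in group 1, stood at 3713, 5543 and 381 FPKM in groups 2 to 4. The size of the step of the sums from group 2 to group 3 therefore depends on leaving it out. Muc5b stood at 294, 286 and 71.0 FPKM in groups 2 to 4. In group 4 against group 1, 8 of 14 tested genes of the serous gland list were called lower (background 3.91%) and 1 higher (5.0%), with a median of -2.19. Dcpp1 went from 787 to 11.9 FPKM (-5.93 ± 0.52), Prb1, of the proline-rich salivary proteins, from 834 to 17.4 (-5.51 ± 0.62) and Bhlha15, a transcription factor of secretory acinar cells, from 19.0 to 0.913 (-3.39 ± 0.31). Lpo, lactoperoxidase, was the 1 gene called higher, at 0.599 and 4.14 FPKM, and Pip, Car6, Muc19, Smgc and Bpifa2 were not called. Lpo and Pip reached 1 FPKM in group 4 but not in group 1 and could only come out higher. Bhlha15 reached it in group 1 but not in group 4 and could only come out lower. In group 3 against group 1, 4 of 14 were lower (Dcpp1, Dcpp2, Dcpp3 and Sbp, background 0.282%) and 3 higher (Pip, Car6 and Lpo, background 2.52%). Pip and Lpo reached 1 FPKM in group 3 but not in group 1, and could only come out higher. Bpifa2, the parotid secretory protein, stood at 1301, 1117, 2425 and 343 FPKM in groups 1 to 4 with no call, and the lingual lipase gene Lipf exceeded the authors' read limit. The part of gland tissue in the level of Chia was not tested.

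Markers of stomach and pancreas, other organs with secretory glands, were near 0 for the most part. Gastric pepsinogen Pgc, intrinsic factor Gif and the acid pump subunits Atp4a and Atp4b were at or under 0.0557 FPKM in every group. The trefoil peptide Tff2, a gastric mucous product also known from salivary gland, went from 6572 FPKM in group 1 to 536 in group 4 (-3.61 ± 0.77). It and the pepsinogen Pga5 were the 2 of 3 tested genes of the gastric list called lower there (background 3.91%). Pga5 and the uncalled Tff1 reached 1 FPKM in group 1 but not in group 4, and could only come out lower. Of the exocrine pancreas list 9 of 15 genes were under 0.1 FPKM in every group. The called genes, 2 of 3 tested, were the amylases Amy2a5 and Amy2b, lower in groups 2, 3 and 4 against group 1. Between 0.282% and 3.91% of all tested genes were called lower in these comparisons. Amy2a5 reached 1 FPKM only in group 1, and so could only come out lower. The same held for Amy2b in group 4 against group 1.

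Of 8 listed relatives of the family 2 could be tested, and of 6 listed Chi3l1 partners 2 or 3. None was called in the 6 comparisons, a count of little weight at these numbers and background shares. Chid1, which encodes a lysosomal chitinase-domain protein, stood at 7.26, 5.75, 4.45 and 3.02 FPKM in groups 1 to 4, a difference of -1.04 ± 0.35 in group 4 against group 1. Ctbs, the lysosomal enzyme that trims chitobiose from glycans, stayed between 1.63 and 2.27 FPKM, and Ovgp1, oviductin, was under 1 FPKM throughout. Of genes named as Chi3l1 partners, Il13ra2 was under 0.1 FPKM in every group and Tmem219 lay between 12.5 and 18.0. The carbohydrate-binding lectin Lgals3 stood at 92.3, 97.8, 170 and 175 FPKM without a call. Cd44, the hyaluronan receptor, could not be estimated in group 1 and was at 16.6, 38.5 and 36.4 FPKM in groups 2 to 4.

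**Figure D5:**
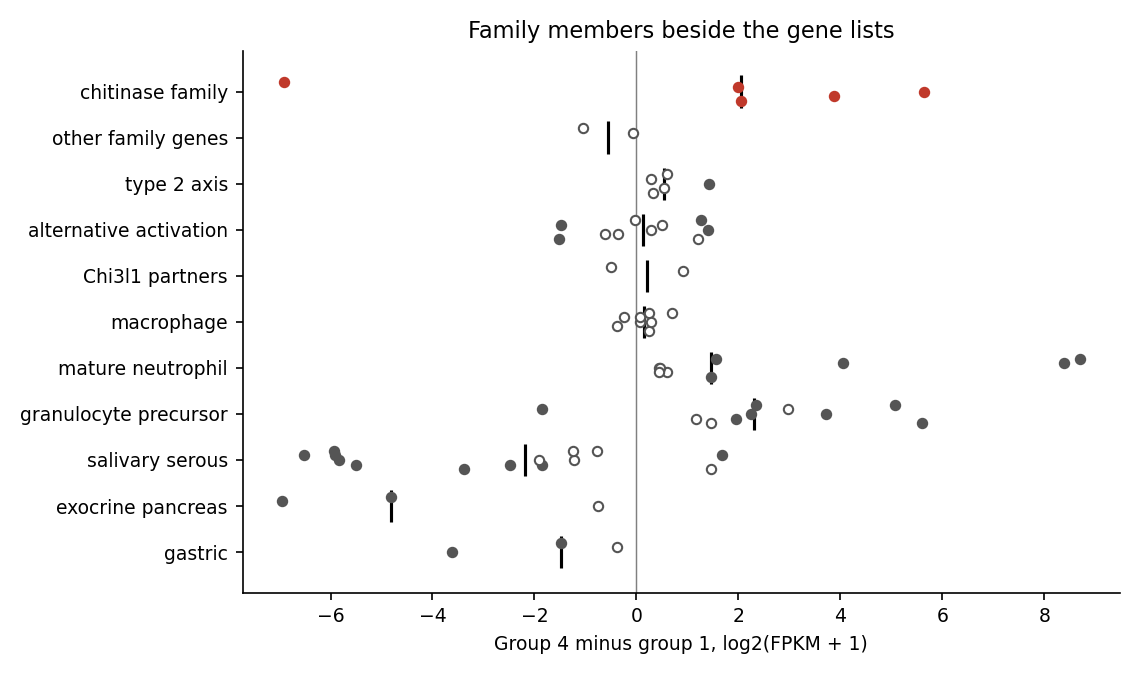
Log2(FPKM + 1) differences of group 4 minus group 1, 1 point per tested gene; the top line holds the 5 family members in red and the lines under it the gene lists in grey. Filled points are called by the authors' test, open points are not, and the black mark is the median of each line (2.05 for the family, -2.19 for the salivary serous list and 0.16 for macrophages). Of the 10 granulocyte precursor genes drawn, 8 reached 1 FPKM only in group 4 and so could lie only to the right. Other lines hold such genes too, among them 6 of 9 mature neutrophil genes. For 2 of 3 gastric genes and 2 of 3 pancreas genes, which reached 1 FPKM in group 1 but not in group 4, only the left was possible.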

How the data were processed

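Poly-A RNA of tongue was sequenced on an Illumina HiSeq2000, and the series design text states comparison with mm9 and levels by Cufflinks. GSNAP 2011.11.17 is named in the submitters' processing notes without a role. The deposited values are the authors' FPKM, 1 per gene and numbered group, in 6 tables of 23235 rows. Each group's FPKM was read from 1 table, and that value was used in every comparison of the group. The authors also deposited a p-value, a q-value and 2 columns read as a score, the test statistic and the log2 ratio, and these were used unchanged. The deposited q equalled a Benjamini-Hochberg adjustment over all 92458 tests to within 3.40e-06.

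Differences were computed as log2(FPKM + 1), pseudocount 1. Squared errors (deposited ratio over statistic) were resolved into 4 group variances by least squares for 14600 genes. They were moved to that scale by the delta method. The arithmetic was checked on data simulated with such variances, which does not show how well the deposited statistics measure error. Gene symbols were matched exactly, and 109 of 120 genes in 10 lists were found. Named genes are the 5 members, up to 4 called genes per list and comparison by size of difference, neighbours within 250 kb at 1 FPKM, and the 5 genes nearest in pattern to each member. Genes given with no call, or to show that a level is low, the tissue markers, and the sums without a list's largest gene were chosen after their values were seen. Members and lists were chosen with earlier results of these data known. The labels do not say whether samples of a group are separate animals, so the authors' p-values cannot be read as spread between animals. How the authors' test estimated its error from the samples is not known here. Coding sequences came from the GENCODE annotation of NCBIM37, matched base for base to that genome, and upstream sequences from RefSeq for 5 of 5 members. Alignments used Biopython 1.88, tables pandas 2.3.3 and numpy 2.4.6. Tables of single samples and of protein sequences were not used here.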

Additional observations from a re-analysis of the deposited data

How the results depend on the processing

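The tables used here hold 1 value per group, so leaving out replicates was not run. No paired analysis was possible because no columns per sample were used. A pseudocount of 0.1 or 0 can change the size of a member's log2 difference but not its direction or the authors' q. Of the 30 member differences after centring on the median ratio, 29 kept direction and call. The exception was Chi3l3 in group 4 against group 3, which became called after centring (2.14, q = 0.0456), so that 1 member was higher there in place of 0. In group 3 against group 2, members called higher went from 2 to 1 at a q threshold of 0.01 and to 1 when p-values were adjusted within the comparison, Chi3l4 being lost. Other counts of members moved by at most 1.5 times under no FPKM filter, a filter at 5 FPKM, a fold of at least 2 or centring. Counts over all list genes moved more. At a q threshold of 0.01, those higher in group 2 against group 1 fell from 2 to 1, those lower in group 3 against group 1 from 6 to 3, and those lower in group 4 against group 3 from 5 to 2. At 5 FPKM, genes higher numbered 0 in group 2 against group 1, 8 (from 15) in group 4 against group 1, 9 (from 17) in group 4 against group 2 and 4 (from 7) in group 4 against group 3. The median log2 ratio that centring removes was -0.16 in group 4 against group 1 and -0.14 in group 4 against group 2. Pseudocount choice sets the size of differences of low genes: Chi3l3 in group 4 against group 1 was 3.88 with a pseudocount of 1 and 6.49 without one.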
